A study of Mus musculus with 16 samples.

Results

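The genes for the protein components of the mitochondrial ribosome (mitoribosome) were followed after loss of Cul4b, which encodes the scaffold of a ubiquitin ligase, in the mouse small intestine. The members were the protein-coding genes of the count tables whose names begin with Mrpl or Mrps and a digit. There were 78 of them, 49 named Mrpl and 29 named Mrps, among 52525 genes shared by the 3 tables. RNA-seq libraries came from 3 experiments, all on the C57BL/6 background. Isolated crypts of KO-IEC mice (pVillin-Cre; Cul4b fn/Y, in which Villin-driven Cre deletes Cul4b in the intestinal epithelium) were compared with WT crypts, 4 libraries against 4. Organoids grown from KO-IEC mice were compared with WT organoids, 2 against 2. The study names the WT control of KO-IEC mice as Cul4b fn/Y, with no Cre given. Organoids with inducible deletion (CAG-CreERT2; Cul4b fn/Y, named KO-CAG, treated with tamoxifen in culture) were also compared with WT organoids, 2 against 2. The study's methods call the replicates biological and give an age range of adult weeks for the mice of most experiments. The labels give no age and do not tie a library to an animal or culture, so the p-values measure the spread between these libraries. Whether the WT cultures of the KO-CAG experiment carried CreERT2 or received tamoxifen is not given in the sources used here, so deletion cannot be told apart from those exposures there.

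The mitoribosome makes the proteins encoded on mitochondrial DNA, all of them core parts of the respiratory chain and the ATP synthase. Its RNAs are made inside the mitochondrion, whereas every protein member is encoded in the nucleus, made by cytosolic ribosomes and imported. Some members descend from bacterial ribosomal proteins and others were added during mitochondrial evolution. In the crypt, stem and progenitor cells divide continuously and give rise to absorptive enterocytes and to secretory cells.

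Total counts ran from 7348191 to 16881395 per library. Cul4b was measured at 31.6 to 38.2 CPM (counts per 1000000 counts of the library, scaled for composition) in WT crypts and at 0.846 to 2.20 in KO crypts, and its level was likewise lower in every KO organoid library (1.69 to 5.18 CPM) than in every WT organoid library (69.9 to 83.1 CPM). The crypt libraries fell into 3 classes by mitochondrial ribosomal RNA, with WT replicate 1 and KO replicates 1 to 3 at 18.9 to 25.3 CPM, WT replicate 4 and KO replicate 4 at 834 and 1078 CPM, and WT replicates 2 and 3 at 2840 and 2873 CPM. Among 8 leukocyte markers the summed level was 283 to 797 CPM in WT crypts and 171 to 670 in KO crypts, and it was at most 6.36 CPM in any organoid library. Stromal and vessel markers summed to at most 8.77 CPM in any crypt library. In such bulk samples, fewer cells of a type and less RNA per cell cannot be told apart.

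The members lay on 17 chromosomes, so they are not one cluster in the genome. Of the 78, 77 passed the low-count filter in each experiment, and tested members had between 31 and 1951 counts per library. The exception was Mrpl53 (ENSMUSG00000030037), which had 0 counts in all 16 libraries. In the GENCODE M21 annotation, 88.0% of its exonic bases are shared with Gm42688 on the same strand, a gene that had 10 to 33 counts per library, so the 0 says nothing of the level of Mrpl53. A further 7 members shared exonic bases with a gene on the same strand and 28 members with a gene on the opposite strand. The sources used here do not say whether strand was used in counting, and reads from such pairs may be left uncounted or mixed. The shares were high for Mrps34 (37.0% same strand, 63.4% opposite) and Mrps25 (69.8% opposite), and Mrps11 and Mrpl46 overlap each other head to head (8.0% and 12.2% of their exonic bases). Processed pseudogenes of Mrpl23, Mrpl48 and Mrps36 had 0 to 72 counts per library, while those parent genes had 189 to 866.

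Levels per kb of gene length in WT crypts differed widely among the tested members. Mrpl34, a large-subunit protein with a bacterial homologue, was highest at 116 CPM per kb, followed by the small-subunit protein Mrps21 at 105 and the large-subunit protein Mrpl2 at 85.2. Mrpl33 (5.01) and Mrps30 (4.97) were lowest. This order depends on the annotated gene length, which is 607 bases for Mrpl34 and 7326 for Mrpl33. Before division by length these 2 genes were at 70.4 and 36.7 CPM, and Mrps23 was the lowest tested member at 12.5 CPM. The proteins are built into the particle in fixed proportion, and the ratio of summed CPM of large-subunit to small-subunit members stayed between 2.25 and 2.44 in all 16 libraries, KO and WT alike.

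Promoters of members were searched for the binding sequences of regulators of nuclear genes for mitochondrial proteins, because the members are scattered in the genome and are transcribed separately. RefSeq (GRCm38.p6) promoters, 250 bases before to 50 bases after the annotated start, were matched for 69 of the 78 members by symbol. Each motif was searched on both strands, and no 2 different motifs overlapped in a member promoter. The ETS motif CCGGAAG, which GABPA can bind, was found for 26 of 69 members (37.7%), against 13.2% of 16272 other protein-coding genes, and lay in 8.86% of all 32851 promoters. AAGATGG, the YY1 motif, was found for 13 members (18.8%) against 7.23% of other genes and 6.34% of all promoters. GCATGCG, the core of the NRF1 motif, was found for 8 members (11.6%) against 5.11% of other genes and 3.58% of all promoters. The E-box CACGTG was found for 5 members (7.25%) against 9.20% of other genes and 7.15% of all promoters. A match is a description of these letters, not a bound site.

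The promoters below belong to members on which the later comparisons turn, with motif matches in capitals and positions counted from 0 at the annotated start. Mrps9 (chr1:42850983-42851282, plus strand) passed the test in crypts and in KO-CAG organoids, and Mrpl11 (chr19:4962056-4962355, plus strand) had the largest change past the threshold in crypts. Neither window holds any of the 4 motifs. Mrps27 (chr13:99344536-99344835, plus strand) had the largest decrease in KO-CAG organoids, and its window holds CCGGAAG on the reverse strand at -48 to -42 and AAGATGG at 14 to 20. Mrpl43 (chr19:45006393-45006692, minus strand) was among the highest increases there, and its window holds CCGGAAG at -56 to -50 and at -12 to -6.
Mrps9: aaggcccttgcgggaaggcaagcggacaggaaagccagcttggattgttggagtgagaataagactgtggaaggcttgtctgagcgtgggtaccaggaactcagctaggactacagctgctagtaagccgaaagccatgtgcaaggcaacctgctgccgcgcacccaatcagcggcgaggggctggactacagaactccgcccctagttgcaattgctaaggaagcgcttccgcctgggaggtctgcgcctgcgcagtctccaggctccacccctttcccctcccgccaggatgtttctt
Mrpl11: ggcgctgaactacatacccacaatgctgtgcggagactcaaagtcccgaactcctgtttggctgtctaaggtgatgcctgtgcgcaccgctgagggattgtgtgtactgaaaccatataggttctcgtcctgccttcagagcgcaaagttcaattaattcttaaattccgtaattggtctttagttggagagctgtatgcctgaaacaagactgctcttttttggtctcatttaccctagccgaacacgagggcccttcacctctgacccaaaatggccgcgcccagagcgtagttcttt
Mrps27: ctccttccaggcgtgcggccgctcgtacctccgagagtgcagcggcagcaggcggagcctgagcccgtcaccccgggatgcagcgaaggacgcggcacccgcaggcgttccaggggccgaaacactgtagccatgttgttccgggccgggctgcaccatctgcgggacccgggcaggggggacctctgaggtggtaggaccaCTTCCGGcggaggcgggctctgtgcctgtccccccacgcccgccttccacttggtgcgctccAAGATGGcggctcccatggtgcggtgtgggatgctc
Mrpl43: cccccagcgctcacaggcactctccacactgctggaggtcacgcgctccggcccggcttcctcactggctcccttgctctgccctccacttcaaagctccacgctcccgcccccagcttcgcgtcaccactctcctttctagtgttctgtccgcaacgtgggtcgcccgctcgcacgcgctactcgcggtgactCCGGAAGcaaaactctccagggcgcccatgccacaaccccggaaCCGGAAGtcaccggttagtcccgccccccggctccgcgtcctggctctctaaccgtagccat

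The KO effect was set beside the motifs. In crypts the median log2 fold change was -0.29 over 25 tested members with the motif and -0.24 over 43 without, and in KO-CAG organoids the medians were 0.03 and -0.02. Of the members past the threshold in crypts, 3 were among those 25 and 5 among those 43. For YY1 the crypt medians were -0.30 with (13 members) and -0.24 without (55 members), and for NRF1 they were -0.19 (8 members) and -0.27 (60 members). No member with either motif was past the threshold in crypts, against 8 of 55 without YY1 and 8 of 60 without NRF1. For the E-box the medians were -0.28 (5 members, 1 past the threshold) and -0.24 (63 members, 7 past it). These counts are too small to compare.

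In crypts, 11 of 77 members fell in KO and none rose. Across all 13427 genes tested 6.96% were called, 2.66% lower and 4.3% higher, against 14.3% of members called lower (edgeR's quasi-likelihood test, adjusted p under 0.05). The direction ran through most of the family: 72 of 77 members had a negative log2 fold change, against 51.1% of all genes tested. The median log2 fold change of the members was -0.27, with quartiles of -0.37 and -0.17, and that of all genes was -0.01. At an unadjusted p under 0.05 there were 42 members, all lower (all genes 31.9%). The changes were small, and no member past the threshold reached 2-fold (all genes 1.79%). In 28 members all 4 KO libraries were below all 4 WT libraries (background 8.79%), which gives an exact two-sided permutation p of 0.0286, the smallest that 4 against 4 allows. No member had all KO libraries above all WT libraries (background 8.7%).

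**Figure D1:**
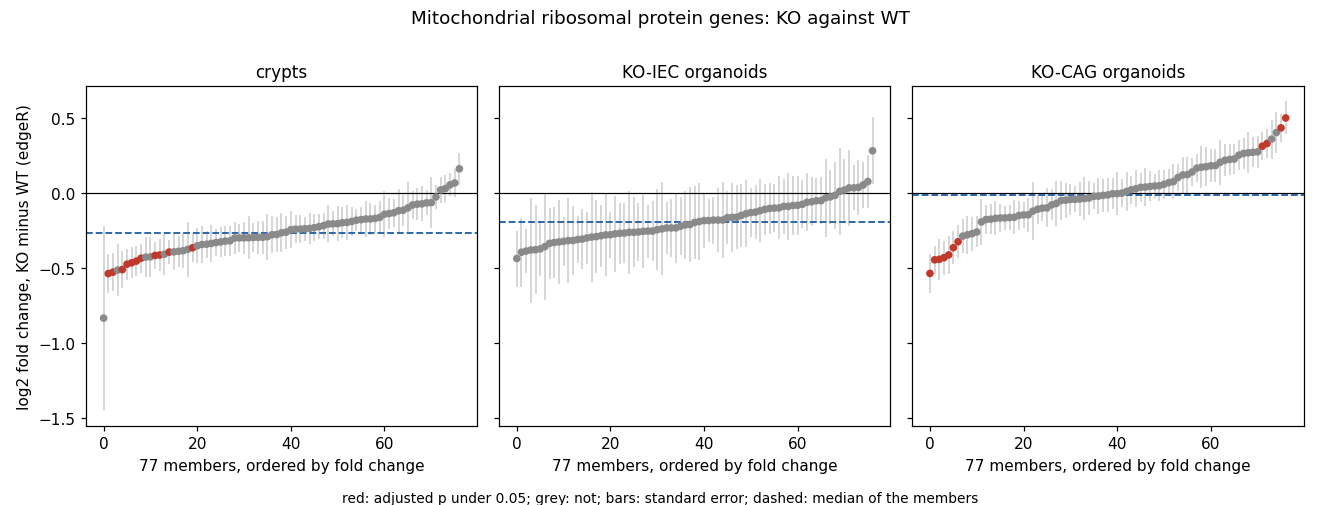
The log2 fold change, KO minus WT, of each of the 77 tested members in crypts, KO-IEC organoids and KO-CAG organoids, ordered within each panel, with standard errors as bars and members past the adjusted p threshold of 0.05 in red. Most points lie under 0 in the first 2 panels (medians -0.27 and -0.20, dashed lines), while in KO-CAG organoids they lie on both sides of 0 (median -0.01).

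Summed over the members, the level was 4617, 4717, 4775 and 4533 CPM in the WT crypts and 4218, 3736, 3611 and 4065 CPM in the KO crypts. All KO crypts were below all WT crypts, with KO replicates 2 and 3 lowest. The summed level of the 76 cytosolic ribosomal protein genes had the same order among the KO libraries (46030, 37450, 30340 and 42570 CPM) and was 56520 to 61350 CPM in WT. Beside them, 36 of the 76 cytosolic ribosomal protein genes fell, with a median log2 fold change of -0.57.

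**Figure D2:**
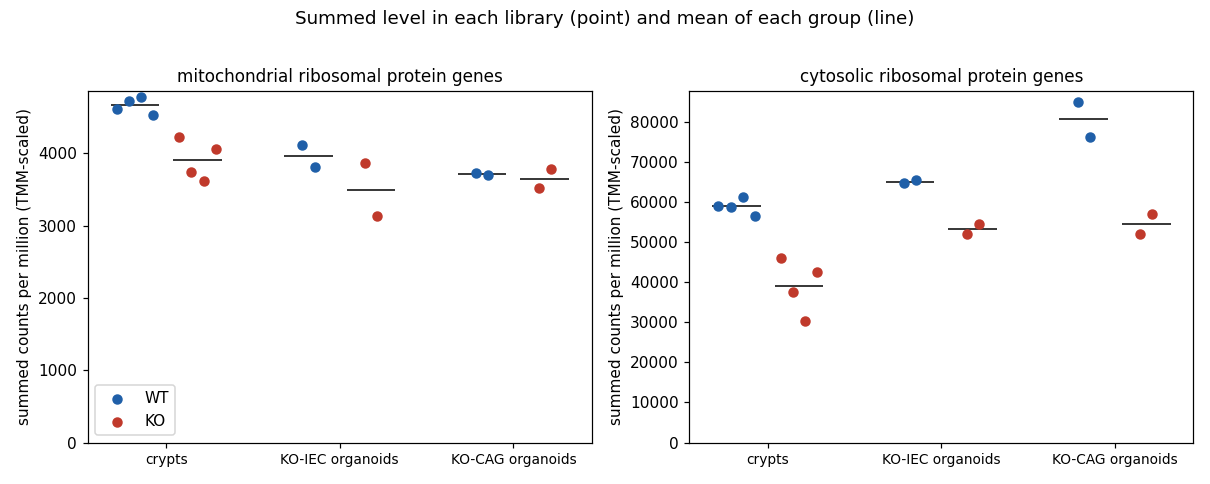
Summed CPM of the members (left) and of the cytosolic ribosomal protein genes (right) in each library, with WT in blue, KO in red and lines at group means. For the members, KO crypts (3611 to 4218) sit below WT crypts (4533 to 4775), and WT and KO overlap in both organoid experiments; for the cytosolic genes KO sits below WT in all 3.

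The decrease in crypts spanned both subunits and both evolutionary classes. Among large-subunit proteins with a bacterial homologue 5 of 30 fell (median log2 fold change -0.22), and among those particular to mitochondria 3 of 20 (median -0.30). In the small subunit 2 of 16 proteins with a bacterial homologue fell (median -0.27), and 1 of 10 particular to mitochondria (median -0.31). Differences between these classes were not tested, and the last of them holds 1 call. Of all genes tested 2.66% were called lower, and their median log2 fold change was -0.01.

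Mrpl11, which sits at the base of the stalk where translation factors bind, was measured at 63.9, 64.0, 66.5 and 62.9 CPM in WT crypts and at 48.0, 45.6, 32.9 and 50.6 CPM in KO crypts. The groups did not overlap, and the WT libraries were tightly spaced. It fell by 0.54 on the log2 scale (SE 0.13, adjusted p = 0.0460). Mrpl28, a large-subunit protein, was at 97.7, 91.6, 93.9 and 73.9 CPM in WT and 68.8, 60.6, 51.0 and 67.1 in KO. WT replicate 4 came closest to the KO libraries, and the log2 fold change was -0.53 (SE 0.12, adjusted p = 0.0460). Mrps28, a small-subunit protein, was at 38.5, 43.3, 43.6 and 36.3 CPM in WT and 32.6, 28.5, 23.0 and 29.3 in KO. Again no KO library reached a WT library, and the log2 fold change was -0.51 (SE 0.12, adjusted p = 0.0463).

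Mrpl2, which lies close to the peptidyl transferase centre, was at 105, 103.6, 107 and 83.2 CPM in WT crypts and at 76.98, 69.5, 65.9 and 74.4 in KO crypts. Its log2 fold change was -0.48 (SE 0.10, adjusted p = 0.0431), with WT replicate 4 standing apart from the other WT libraries. Mrpl58, a peptidyl-tRNA hydrolase built into the large subunit that can release stalled chains, was at 65.3, 62.4, 65.4 and 52.6 CPM in WT and 48.9, 41.9, 40.2 and 46.8 in KO. It fell by 0.47 on the log2 scale (SE 0.10, adjusted p = 0.0438). Mrps9, a small-subunit protein whose bacterial homologue reaches the decoding site, was at 81.2, 101.3, 91.4 and 81.1 CPM in WT and 69.7, 66.6, 61.9 and 64.1 in KO. Its log2 fold change was -0.44 (SE 0.10, adjusted p = 0.0438), and all KO libraries lay below all WT libraries. Mrps35, a small-subunit protein particular to mitochondria, was at 67.1, 70.7, 65.5 and 63.2 CPM in WT and 55.7, 48.4, 50.03 and 48.6 in KO. It had the lowest adjusted p of the family (log2 fold change -0.40, SE 0.08, adjusted p = 0.0413). The remaining members that fell were Mrpl48, Mrpl41, Mrpl21 and Mrpl13, with log2 fold changes from -0.46 to -0.37 and no overlap between KO and WT libraries.

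**Figure D3:**
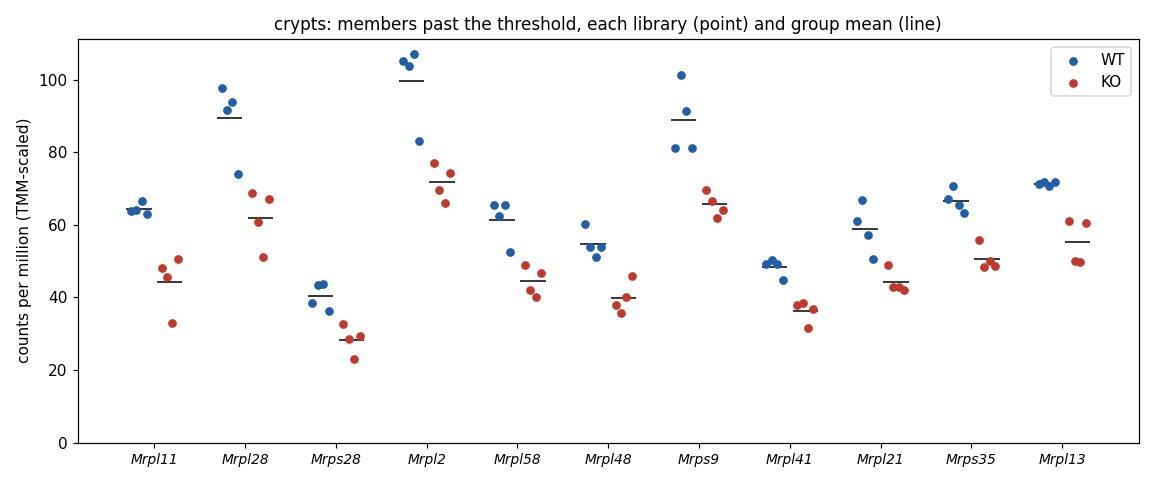
CPM of the 11 members past the threshold in crypts, in each of 4 WT (blue) and 4 KO (red) libraries, with lines at group means and genes ordered by log2 fold change. For each gene the KO points lie below the WT points, most narrowly where WT replicate 4 is low, as for Mrpl28 at 73.9 CPM.

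Members followed for their roles had values of the same sign in crypts, with the exception of Mrps36. Mrpl12, the stalk protein, was at 120.8, 124.4, 119.2 and 112.8 CPM in WT and 104.9, 88.7, 87.4 and 107.3 in KO (log2 fold change -0.30, SE 0.10, adjusted p = 0.0781). Its groups did not overlap, but it did not pass the test. Mrps12, at the decoding centre, had a log2 fold change of -0.41 (SE 0.14, adjusted p = 0.0827), and its KO replicate 1 (46.0 CPM) was above WT replicate 4 (42.4 CPM). Mrps16, Mrps22, Mrpl3 and Mrpl44, which are known human disease genes, had log2 fold changes of -0.39, -0.12, -0.24 and -0.25, none past the threshold. The paralogs Mrps18a, Mrps18b and Mrps18c, of which Mrps18a belongs to the large subunit, were at -0.32, -0.29 and -0.28, also not past it. Mrps30, a large-subunit protein in spite of its name, was at -0.30 (adjusted p = 0.185).

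Mrps36 is also known as a subunit of the 2-oxoglutarate dehydrogenase complex, and it had the highest value of the family in crypts, with 60.0, 46.6, 47.3 and 53.4 CPM in WT and 55.8, 53.4, 59.5 and 63.2 in KO (log2 fold change 0.16, SE 0.11, adjusted p = 0.316). The groups overlapped. Mrpl34, the member with the highest level per kb, had a log2 fold change of 0.07 (SE 0.09, adjusted p = 0.646), which was -0.02 when libraries were scaled by size only. Mrps23, a small-subunit protein particular to mitochondria, had the lowest value of all (-0.84) with the widest error (SE 0.61). It was singled out after its values were seen. It was at 3.22, 5.55, 22.7 and 18.6 CPM in WT crypts and 8.65, 2.36, 8.15 and 9.17 in KO crypts, so WT libraries alone differed several-fold, whereas the organoid libraries held 37.3 to 56.4 CPM.

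The calls in crypts lay just inside the threshold, with adjusted p from 0.0413 to 0.0499, and they depended on single libraries. None of the 11 passed without WT replicate 1, 2 or 3 or without KO replicate 2 or 3, where no more than 20 of all genes tested did; 4 members passed without KO replicate 4, 14 without WT replicate 4 and 25 without KO replicate 1. All of these were lower, where 1.41%, 4.99% and 7.87% of all genes were called lower in the same fits. The sign did not depend on them: 70 to 73 of 77 members stayed negative in every such fit, with medians from -0.32 to -0.22. With the mitochondrial ribosomal RNA class as a covariate no member and 2 of all genes passed the test, and the median was -0.22. Within the low class, 70 of 77 members were lower in the mean of 3 KO libraries than in the 1 WT library (median -0.29, all genes -0.02), and within the middle class 67 of 77 were lower in 1 KO than in 1 WT library (median -0.18, all genes 0.00). Enterocyte markers summed to 9255 to 21020 CPM in KO and 2642 to 10790 CPM in WT crypts, and all 10 had a positive fold change. None was past the threshold, 9 had an unadjusted p under 0.05 (all genes 31.9%) and DESeq2 called 7 higher (all genes 11.5% higher). Of 8 proliferation markers 8 were negative and 1 fell (12.5%), and of 8 stem cell markers 2 fell (25%), against 2.66% of all genes called lower. Their part in the lower levels of the members was not tested.

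In KO-IEC organoids no member passed the test, against 0.00717% of all 13938 genes tested. At an unadjusted p under 0.05 there was 1 member (all genes 4.66%), and DESeq2 called none. The signs were like those in crypts: 69 of 77 members had a negative log2 fold change (all genes 51.2%), with a median of -0.20 against -0.01 for all genes. Both KO libraries were below both WT libraries for 27 members and above for 2, where 19.4% of all genes fell in each of these patterns. In simulated data of this size, 2% of genes changed 2-fold were recovered.

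The negative values in KO-IEC organoids rested on 1 library. The summed level of the members was 4111 and 3804 CPM in WT, 3867 CPM in KO replicate 1 and 3128 CPM in KO replicate 2. KO replicate 2 was the only library below the WT range. Relative to the WT mean the median member was at -0.02 in KO replicate 1 and -0.39 in KO replicate 2, on the log2 scale. Without KO replicate 2 the median fold change was -0.02 and 43 of 77 members were negative, and without KO replicate 1 it was -0.40 and 8 members were called lower (all genes 9.16% lower), the lone KO library being taken to vary like the others. KO replicate 2 also stood apart in its cell type markers, with summed proliferation markers at 645 CPM (1664, 1668 and 1786 CPM in the other libraries), stem cell markers at 382 CPM (1540 to 3701) and enterocyte markers at 25080 CPM (6606 to 19900). Their part in its lower member levels was not tested.

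The 4 members with the smallest p in KO-IEC organoids did not pass the test. Mrpl52, a large-subunit protein particular to mitochondria, was at 76.6 and 79.3 CPM in WT and 61.1 and 58.0 CPM in KO (log2 fold change -0.39, SE 0.15). Mrpl23, which lines the exit of the peptide tunnel, was at 36.2 and 41.5 CPM in WT and 29.4 and 28.0 in KO (-0.44, SE 0.19). Mrpl14, on the face of the large subunit that meets the small one, was at 43.9 and 46.1 CPM in WT and 32.3 and 37.1 in KO (-0.37, SE 0.18). Mrps9 was at 64.5 and 63.2 CPM in WT and 54.5 and 47.5 in KO (-0.32, SE 0.16). In each of them both KO libraries, replicate 1 included, were below both WT libraries, and the adjusted p was 0.856 in edgeR's quasi-likelihood test.

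In KO-CAG organoids the family did not move in one direction: 7 of 77 members fell and 4 rose. Among all 13598 genes tested 31.5% were called, 13.4% lower and 18.1% higher, so the 14.3% of members called was a smaller share than that of all genes. None of the 11 reached 2-fold (all genes 8.6%). The median log2 fold change was -0.01 (all genes 0.00), with quartiles of -0.15 and 0.16, and 42 of 77 were negative (all genes 49.9%). Both KO libraries were below both WT libraries for 20 members (all genes 34.2%) and above for 22 (all genes 35.5%). The summed level was 3724 and 3695 CPM in WT and 3515 and 3784 CPM in KO, with the WT libraries lying between the KO libraries. In the same libraries 68 of 76 cytosolic ribosomal protein genes fell (median -0.56), and their summed level was 84960 and 76310 CPM in WT and 52160 and 57160 CPM in KO.

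Among the members that fell, Mrps27, a small-subunit protein of the pentatricopeptide repeat family, was at 51.5 and 54.9 CPM in WT and 31.8 and 41.0 in KO. It had the largest decrease, 0.54 on the log2 scale (log2 fold change -0.54, SE 0.13, adjusted p = 0.010), and 24.2% of its exonic bases are shared with 6430562O15Rik on the opposite strand. Mrpl30, a large-subunit protein with a bacterial homologue, was at 77.3 and 72.6 CPM in WT and 57.0 and 53.2 in KO (-0.45, SE 0.09, adjusted p = 0.00476). The libraries of each group lay close together. Mrps30 was at 30.0 and 28.0 CPM in WT and 19.6 and 22.9 in KO (-0.44, SE 0.14, adjusted p = 0.0313). Mrps9 was at 74.8 and 72.5 CPM in WT and 48.0 and 60.5 in KO (-0.43, SE 0.11, adjusted p = 0.0162). Mrpl23 was at 60.1 and 53.1 CPM in WT and 37.3 and 47.1 in KO (-0.41, SE 0.13, adjusted p = 0.0304). For Mrps27, Mrps9 and Mrpl23, KO replicate 1 was lower than KO replicate 2. Mrps35 (61.6 and 52.1 CPM in WT, 43.1 and 45.1 in KO) and Mrpl14 (50.6 and 44.3 in WT, 36.3 and 39.2 in KO) also fell, by 0.37 and 0.33 on the log2 scale.

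The 4 members that rose, and 4 of the 7 that fell, belong to the large subunit, which also holds most of the tested members. Mrpl20 was at 31.8 and 30.5 CPM in WT and 46.2 and 42.2 in KO, the largest increase (log2 fold change 0.50, SE 0.11, adjusted p = 0.00689). Mrpl43 was at 53.0 and 50.8 CPM in WT and 72.0 and 68.4 in KO (0.43, SE 0.09, adjusted p = 0.00544). It shares 33.4% of its exonic bases with Twnk, the gene of the mitochondrial DNA helicase, on the opposite strand. Mrpl34, at 47.5 and 51.2 CPM in WT, was at 62.0 and 61.9 in KO (0.33, SE 0.09, adjusted p = 0.0234), and Mrpl17, at 55.6 and 51.6 CPM in WT, was at 67.5 and 65.6 in KO (0.31, SE 0.09, adjusted p = 0.0277). The KO libraries of these genes were close together and clear of the WT libraries.

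**Figure D4:**
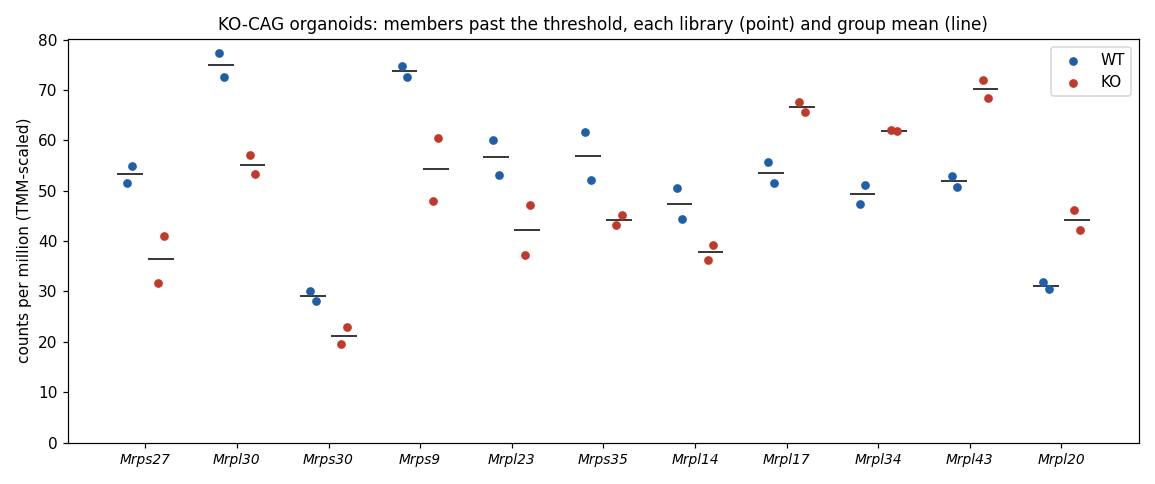
CPM of the 11 members past the threshold in KO-CAG organoids, in each of 2 WT (blue) and 2 KO (red) libraries, with lines at group means and genes ordered by log2 fold change from Mrps27 (-0.54) to Mrpl20 (0.50). The KO points lie below the WT points for 7 genes and above them for 4.

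The split between lower and higher calls moved with single libraries. It was 6 lower and 10 higher without KO replicate 1, 12 lower and 4 higher without KO replicate 2, 3 lower and 2 higher without WT replicate 1, and 5 lower and 0 higher without WT replicate 2. In those fits 29.1%, 33.5%, 19.8% and 20.3% of all genes were called, in that order. The members followed for their roles that are not named above did not pass the test, with log2 fold changes between -0.29 (Mrpl44) and 0.17 (Mrps36). Cell type markers moved in these organoids too, where 18.1% of all genes were called higher and 13.4% lower. Of the markers, 8 of 10 enterocyte, 5 of 6 Paneth, 6 of 6 goblet and 4 of 5 enteroendocrine ones rose. Of 8 proliferation markers 2 fell, and of 8 stem cell markers 2 fell and 1 rose. Their part in the changes of the members was not tested.

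Across the 3 experiments 39 of 77 members were negative in all, and none was positive in all. Taken singly, 72 members were negative for the crypt comparison, 69 for the KO-IEC model and 42 for the KO-CAG model. Much sharing of negative signs thus follows from these separate counts, and agreement beyond them was not tested. How often all genes agreed in sign is not given, so the 39 is a description only. Mrps9 and Mrps35 were the members called in both crypts and KO-CAG organoids, both lower. They were 2 of the 11 called in crypts and 2 of the 7 called lower in KO-CAG organoids. Of all genes tested, 2.66% were called lower in crypts and 13.4% in KO-CAG organoids. The share of all genes called lower in both is not given, so this overlap has no background. The remaining members called in crypts were at -0.27 to 0.18 in KO-CAG organoids. Of the members called higher in KO-CAG organoids, Mrpl20, Mrpl43 and Mrpl17 were at -0.21, -0.17 and -0.20 in crypts. Over the 77 members the fold changes had a Pearson correlation of 0.37 between crypts and KO-IEC organoids, 0.22 between crypts and KO-CAG organoids and 0.34 between the organoid models (Spearman 0.41, 0.27 and 0.33). Over all genes tested in both experiments of a pair the Pearson correlations were 0.41, 0.40 and 0.24. The points share the libraries of each experiment and are given as a description.

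**Figure D5:**
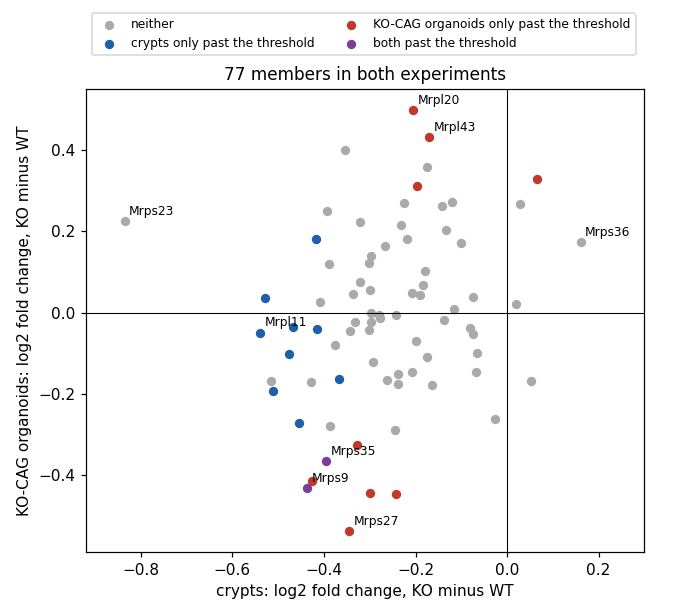
Log2 fold change, KO minus WT, of each member in crypts (x axis) against KO-CAG organoids (y axis), coloured by where it passed the threshold. Nearly all members lie left of 0 on the x axis and spread on both sides of 0 on the y axis, and Mrps9 and Mrps35 are the members past the threshold in both.

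The difference between the KO effects was tested in 1 fit of all 16 libraries. No member passed for KO-CAG organoids minus crypts, where 0.372% of 15585 genes did, 0.237% with a higher effect in KO-CAG organoids. The difference was positive for 63 of 77 members, with a median of 0.25 (all genes 0.00), 16 members had an unadjusted p under 0.05, and DESeq2 called 3. The smallest p was that of Mrpl43, with a difference of 0.59 on the log2 scale (SE 0.14, adjusted p = 0.0855). For KO-IEC organoids minus crypts the median difference was 0.09, with no member past the threshold, 2 at an unadjusted p under 0.05 and none by DESeq2 (background 0.00642%). For KO-CAG minus KO-IEC organoids the median was 0.18, with none past it, 6 at an unadjusted p under 0.05 and none by DESeq2 (background 0.385%, of which 0.199% higher in KO-CAG organoids). The 3 contrasts thus gave no call for a single member in edgeR's test, and the tools differed for KO-CAG organoids minus crypts. For these contrasts the shares of all genes at an unadjusted p under 0.05 and by DESeq2 are not given. Those counts of members therefore have no background and are a description only.

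Other genes of mitochondrial translation were compared with the members. Of 5 mitoribosomal proteins with other names, all were negative in crypts (median -0.31) and in KO-IEC organoids (median -0.29) without passing the test. In crypts 2 had an unadjusted p under 0.05 (all genes 31.9%) and DESeq2 called 1 lower (all genes 7.05% lower). In KO-IEC organoids the counts were 0 and 0 (all genes 4.66% and 0.194%). In KO-CAG organoids 1 of the 5 fell (20%, against 13.4% of all genes lower). It was Dap3, a small-subunit protein also linked to cell death (-0.31, SE 0.09, adjusted p = 0.0252). Of the assembly factors, 1 of 24 tested (4.17%) fell in crypts (median -0.26), where 2.66% of all genes were called lower. It was the ribosomal RNA methyltransferase Mrm2 (-0.59, SE 0.11, adjusted p = 0.0383). In KO-CAG organoids 4 of 25 (16%) fell (median -0.14), where 13.4% of all genes were called lower. Of the translation factors, 1 of 15 (6.67%) fell in crypts (Tsfm, an elongation factor, -0.47) and 3 of 14 (21.4%) in KO-CAG organoids. Guf1 was among the latter (-0.74, SE 0.11, adjusted p = 0.000717).

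The mitochondrial aminoacyl-tRNA synthetases charge the transfer RNAs used by the mitoribosome. Their crypt median was -0.27, with 0 of 17 past the threshold. At an unadjusted p under 0.05 there were 9 (all genes 31.9%), and DESeq2 called 5 lower (all genes 7.05% lower). In KO-CAG organoids 8 of 17 fell (47.1%, against 13.4% of all genes lower), with a median of -0.37. Iars2 (-0.44, SE 0.08, adjusted p = 0.00327) was among them. Of 13 regulators of mitochondrial transcription and biogenesis, 1 rose in crypts (7.69%, against 4.3% of all genes higher). It was Ppargc1a, a coactivator of mitochondrial genes (1.15, SE 0.30, adjusted p = 0.0499). In KO-CAG organoids 4 of 13 (30.8%) fell and 1 rose (7.69%), against 13.4% of all genes lower and 18.1% higher. Tfam, which packages mitochondrial DNA and acts in its transcription, was at -0.58 (SE 0.10, adjusted p = 0.00148). Esrra, a nuclear receptor, was at 0.43 (SE 0.08, adjusted p = 0.00385).

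The messenger RNAs that the mitoribosome translates, and the nuclear-encoded partners of their products, are given beside the members. The 13 mitochondrially encoded messenger RNAs had a median log2 fold change of 0.29 in crypts, with 3 of 13 negative and none past the threshold. There were 0 at an unadjusted p under 0.05 (all genes 31.9%) and 0 by DESeq2 (all genes 18.5%). In KO-CAG organoids 1 of 13 fell (mt-Nd3, -0.45), which is 7.69% against 13.4% of all genes called lower, and the median was -0.16. Nuclear-encoded respiratory chain subunits had a crypt median of -0.05, with 0 of 77 past the threshold. Of them, 9 had an unadjusted p under 0.05 (all genes 31.9%) and DESeq2 called 3 (all genes 18.5%). In KO-CAG organoids 2 of 78 fell and 9 rose (14.1% called, against 31.5% of all genes), with a median of 0.07.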

How the data were processed

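Total RNA from mouse small intestinal crypts and organoids was sequenced on an Illumina HiSeq instrument. The authors deposited raw counts per gene, made per the labels with HISAT2 (version 2.0.5) and featureCounts (version 1.5.0-p3). The genome build, annotation and use of strand are not given in the sources used here. Of the 78 members, 72 had the same start and end in GENCODE M21 (GRCm38) as in the tables. Counts were tested per experiment, KO against WT, with edgeR 4.0.16 (filterByExpr, TMM scaling, quasi-likelihood F test, Benjamini-Hochberg adjustment over all genes tested, threshold 0.05) in R 4.3.3, without covariates. CPM and log2 fold changes use TMM-scaled library sizes, and SE was taken as the absolute log2 fold change over sqrt(F). Differences between experiments were tested as contrasts in 1 fit of 6 groups. DESeq2 1.42.0, other scalings and filters, a replicate block and the omission of each library were tried as alternatives. In simulated counts, 65% of 2-fold changes were recovered in the crypt design, 2% in the KO-IEC and 84% in the KO-CAG organoid design. Total counts ran from 7348191 to 16881395 per library, where 3 counts are 0.178 to 0.408 CPM. No 2 replicate libraries agreed within counting noise. Named members were, by a written rule, the 5 largest called changes in each direction per experiment (without calls, the 4 smallest p), those called in both crypts and KO-CAG organoids, members fixed by role, the 3 highest and lowest per kb in WT crypts, and the untested member. The members and the lists were chosen with earlier results of these data known.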

Additional observations from a re-analysis of the deposited data

Results flagged for a closer look

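Among 66 pairs of a named member and a crypt group, 5 held a library far from the other 3 of its group, where chance gives about 1 in 20. Mrpl2 was at 83.17 CPM in WT replicate 4 and at 103.6 to 107 CPM in the other WT crypts, so the lowest WT value was the one nearest to the KO libraries. Mrps30 was likewise low in WT replicate 4, at 29.67 CPM against 34.06 to 34.7 CPM. Mrpl34 was high in WT replicate 1, at 76.28 CPM against 67.72 to 68.81 CPM. Mrpl33 was at 40.62 CPM in KO replicate 4 and at 23.76 to 24.99 CPM in the other KO crypts, inside the WT range of 32.6 to 42.35 CPM. Mrpl21 was at 48.93 CPM in KO replicate 1 and at 41.9 to 42.96 CPM in the other KO crypts.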

How the results depend on the processing

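In crypts 11 members passed the threshold (6.96% of all genes). Under the other scalings, the other low-count filters and 1 fit of all 16 libraries 9 to 14 passed (4.71% to 10.7% of all genes). DESeq2's Wald test called 23 (18.5% of all genes), a covariate for the mitochondrial ribosomal RNA class left 0 (2 of all genes), and the added requirement of a 2-fold change left 0. Leaving out 1 library gave 0 to 25. In KO-CAG organoids 11 passed, with 5 by DESeq2's Wald test (20.3% of all genes), 0 in 1 fit of all 16 libraries (3.06% of all genes), 0 with a 2-fold change required and 5 to 16 without 1 library. In KO-IEC organoids 0 passed under each alternative except the omission of 1 library (0 to 8). For the difference between KO-CAG organoids and crypts DESeq2's Wald test called 3 members against 0 in edgeR's test, with the share of all genes not given. The fold change of Mrpl34 in crypts turned from 0.07 to -0.0167 (adjusted p = 0.925) when libraries were scaled by size only; the cause was not tested.

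Same-numbered WT and KO crypt libraries did not all deviate together (correlations -0.04, 0.19, -0.40 and, for replicate 4, 0.43 over genes), so the numbers were not taken as pairs. For the organoids the correlations were 0.34 (KO-IEC) and 0.07 (KO-CAG). With 2 libraries per group both pairs must give the same value, so each is a single value. With the replicate number as a replicate block 0 members passed in crypts, where only 4 of all genes did. In KO-CAG organoids 13 of 77 members passed, a smaller share than the 36.3% of all genes. In KO-IEC organoids 0 passed (0.00717% of all genes), and 0 passed for the 3 differences. In the KO-IEC organoid design 2% of simulated 2-fold changes were recovered. Changes under 2-fold, such as those of the members, were not simulated.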
